A study of Homo sapiens with 4 samples.

Results

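A group of 9 genes of pericellular proteolysis was followed by RNA-Seq in MDA-MB-231 cells, a mesenchymal-like triple-negative breast cancer line. They are 4 matrix metalloproteinases (MMP1, MMP3, MMP9 and MMP14), 3 tissue inhibitors of metalloproteinases (TIMP1, TIMP2 and TIMP3), the urokinase gene PLAU and its receptor gene PLAUR. The genes were chosen by name from a table of 35993 genes, and all 9 passed the filter of a mean count of at least 10, as did 16599 genes in all. The study crossed a transfection with a treatment, so that there were 4 conditions with 1 library each: siCTGF cells with kahweol, siCTGF cells without it, siControl cells with kahweol, and siControl cells without it. siCTGF is a single siRNA against connective tissue growth factor (CTGF, gene symbol CCN2), and siControl is a negative control siRNA. Kahweol, a coffee diterpene, was given at 50 µM for 48 h in serum-free medium, and no vehicle is named for the untreated cells. The comparisons ask what kahweol does to these mRNAs with and without CTGF knockdown, and what the knockdown does with and without kahweol.

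Matrix metalloproteinases are zinc-dependent endopeptidases that are made as inactive proenzymes and cleave collagens, proteoglycans and other matrix proteins. TIMPs bind the active site and block it, and TIMP2 also takes part, with MMP14, in the activation of proMMP2 at the cell surface. Urokinase converts plasminogen to plasmin and is held at the cell surface by its receptor, while plasmin in turn activates several proMMPs. In breast cancer cells these systems are known for their part in invasion. RNA-Seq measures the mRNA only, not secretion, activation or enzyme activity.

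The libraries held 44781516 to 59129784 counts. CCN2, the siRNA target, had 31.8 and 63.6 CPM (counts scaled to the library size) in siCTGF cells with and without kahweol, against 186 and 159 CPM in siControl cells with and without it, so each library matched its siRNA label. All 6 markers of the line (VIM, CD44, EGFR, AXL, KRT18 and KRT8) were above 1 TPM (a length-normalized unit of transcript abundance) in every library, and ESR1 and PGR were at or below 0.0928 TPM. ERBB2 (20.3, 31.5, 20.1 and 29.5 TPM) and CDH1 (2.28, 4.29, 3.51 and 3.77 TPM, both in the order of conditions above) had been listed as low or absent and were detected. Summed leukocyte, endothelial and fibroblast markers reached at most 1.81, 1.38 and 1.56 TPM. The endothelial sum was lower with kahweol, at 0.203 and 0.335 TPM in siCTGF and siControl cells, against 1.07 and 1.38 TPM without it, and its part in the results was not tested. Every fold change between conditions below compares 2 single libraries. Its 95% interval covers counting error only, and differences between cultures were not measured.

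Among the 9 genes, PLAU had the highest mRNA level per length in untreated cells and TIMP1 in kahweol-treated cells. TIMP1 stood at 343 and 381 TPM in siCTGF and siControl cells with kahweol, followed by PLAUR at 227 and 238 TPM. Without kahweol, PLAU stood first at 306 and 408 TPM in siCTGF and siControl cells, followed by TIMP1 at 256 and 262 TPM. PLAU was thus the fourth of the 9 in siCTGF cells and the third in siControl cells once kahweol was present, and its rank among protein-coding genes was 1083 and 996 with kahweol, against 366 and 265 without it. TIMP2 (62.0 to 98.3 TPM) came after these, followed by MMP1 (20.5 to 53.3 TPM) and TIMP3 (7.33 to 10.2 TPM), in that order in every library. MMP3 and MMP9 were lowest, and their ranges over the libraries overlapped (1.65 to 5.50 and 2.09 to 3.44 TPM). The range of PLAU (96.4 to 408 TPM) overlapped those of TIMP1 (256 to 381), PLAUR (155 to 238), MMP14 (104 to 185) and TIMP2, and the ranges of PLAUR and MMP14 overlapped each other. TIMP1 lay above PLAUR and MMP14 in every library, and TIMP2, MMP1 and TIMP3 did not overlap each other.

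**Figure D1:**
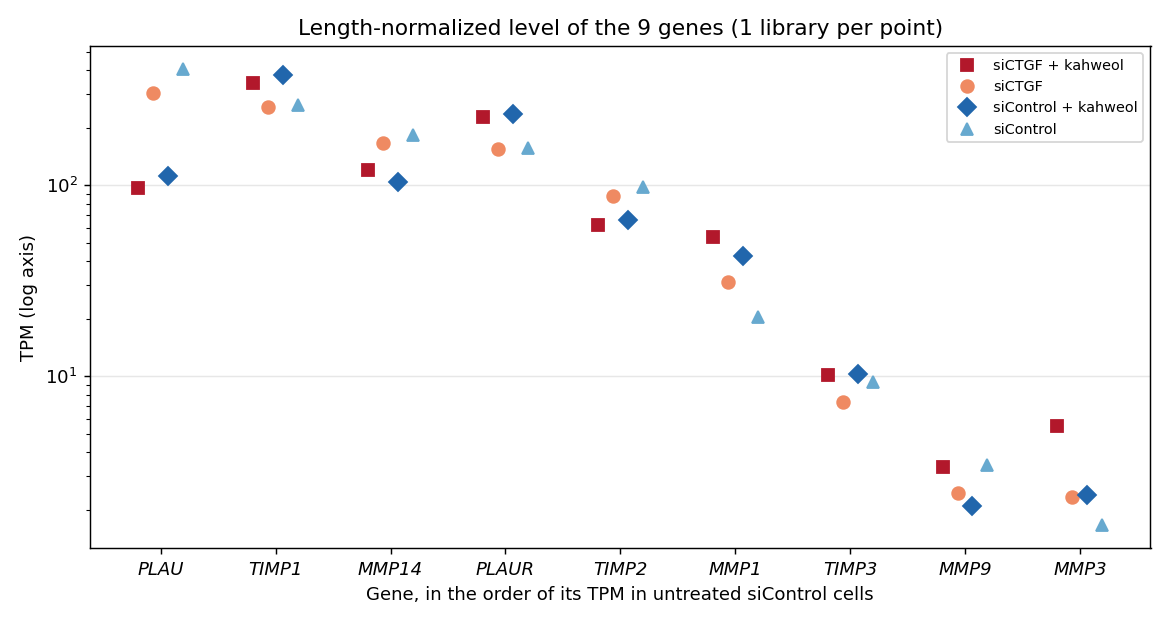
TPM (log axis) of the 9 genes in the 4 libraries, with genes ordered by their level in untreated siControl cells and 1 library per point. PLAU lies between 96.4 and 408 TPM and changes its place in the order, while MMP9 and MMP3 are below 6 TPM in all libraries.

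Of the proteinases, the secreted collagenase and stromelysin genes rose with kahweol and the membrane-type gene fell. MMP1 encodes interstitial collagenase, which cleaves fibrillar collagen, and lies at chr11:102660650-102668891 (GRCh37, minus strand, gene ID 4312). Its level was 63.4 and 47.6 CPM in siCTGF and siControl cells with kahweol, against 30.7 and 19.6 CPM in siCTGF and siControl cells without it. Both treated libraries were above both untreated ones, and within each treatment the siCTGF library was the higher. The log2 fold change with kahweol was 1.05 (95% counting interval 0.92 to 1.17) in siCTGF cells and 1.28 (1.13 to 1.43) in siControl cells. In an additive fit over the 4 libraries, with the siRNA as covariate, the kahweol effect on MMP1 was 1.16 ± 0.098 on the log2 scale (SE, 2 treated against 2 untreated libraries, adjusted p = 0.000118 by edgeR's quasi-likelihood test, Benjamini-Hochberg over all genes). The fit leaves 1 residual degree of freedom, and a difference between the 2 kahweol effects counts as noise in it.

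MMP3 encodes stromelysin-1, which cleaves proteoglycans and can activate proMMP1, and lies near MMP1 at chr11:102706532-102714340 (minus strand, gene ID 4314). It had 269 and 107 counts in siCTGF and siControl cells with kahweol, against 117 and 92 counts without it, or 6.06 and 2.48 CPM against 2.16 and 1.47 CPM. The siCTGF library with kahweol stood apart from the other 3, and the siControl library with kahweol was close to the untreated siCTGF one. The kahweol effect in the additive fit was 1.13 ± 0.32 (log2, SE, edgeR adjusted p = 0.0218), and without the siRNA covariate it was 1.24 with an edgeR adjusted p of 0.0584, over a range of 0.00846 to 0.0584 among the alternatives.

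MMP9, gelatinase B, which cleaves denatured collagen and basement membrane collagen, lies at chr20:44637547-44645200 (plus strand, gene ID 4318) and was the only one of the 9 without a called kahweol effect. Its level was 4.73 and 2.78 CPM in siCTGF and siControl cells with kahweol, against 2.90 and 3.91 CPM without it. The treated and untreated levels overlapped, since the 2 siRNA backgrounds ran in opposite directions. The log2 fold change was 0.70 (0.27 to 1.15) in siCTGF cells and -0.48 (-0.96 to -0.03) in siControl cells, and the additive effect was 0.11 ± 0.34 (log2, SE, edgeR adjusted p = 0.814), which was -0.03 with total-count scaling.

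MMP14, a membrane-anchored collagenase that also activates proMMP2, lies at chr14:23305794-23316967 (plus strand, gene ID 4323) and was the most abundant of the 4 proteinase mRNAs. It had 269 and 219 CPM in siCTGF and siControl cells with kahweol, against 313 and 331 CPM without it. Both treated libraries were below both untreated ones. The log2 fold change was -0.22 (-0.26 to -0.17) in siCTGF cells and -0.60 (-0.65 to -0.55) in siControl cells, and the additive kahweol effect was -0.41 ± 0.097 (log2, SE, edgeR adjusted p = 0.0108).

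**Figure D2:**
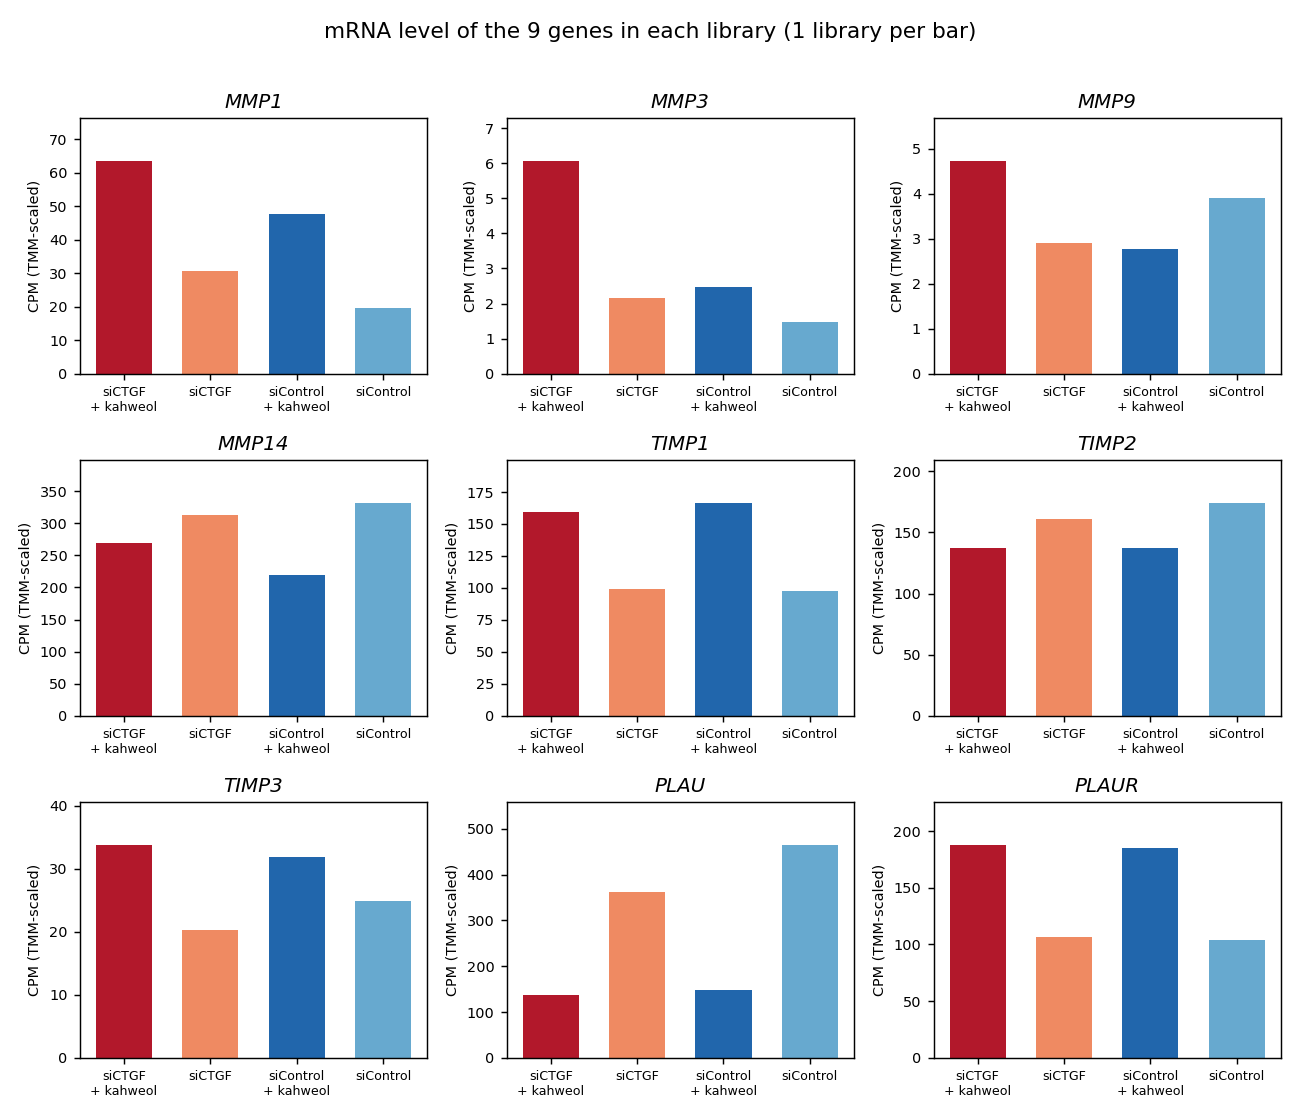
CPM of each of the 9 genes, 1 bar per library, with a separate axis from 0 for each gene. MMP1, MMP3, TIMP1, TIMP3 and PLAUR are higher with kahweol than without it in both siRNA backgrounds, MMP14, TIMP2 and PLAU are lower, and MMP9 is higher in siCTGF cells (4.73 against 2.90 CPM) and lower in siControl cells (2.78 against 3.91 CPM).

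Of the inhibitors, TIMP1 and TIMP3 rose with kahweol and TIMP2 fell. TIMP1, a secreted inhibitor of most MMPs at chrX:47441835-47446188 (plus strand, gene ID 7076), had 159 and 166 CPM in siCTGF and siControl cells with kahweol, against 99.2 and 97.8 CPM without it. The levels grouped by treatment and hardly differed by siRNA. Its log2 fold change was 0.68 (0.61 to 0.76) in siCTGF cells and 0.77 (0.70 to 0.84) in siControl cells, and the additive effect was 0.72 ± 0.082 (SE, edgeR adjusted p = 0.000369).

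TIMP2, at chr17:76849059-76921469 (minus strand, gene ID 7077), had 137 CPM in both kahweol-treated libraries, against 161 and 174 CPM in untreated siCTGF and siControl cells. The change was the smallest of those called among the 9, with log2 fold changes of -0.24 and -0.34 in siCTGF and siControl cells and an additive effect of -0.29 ± 0.080 (SE, edgeR adjusted p = 0.0193). As a result of these opposite changes, the TPM ratio of TIMP1 to TIMP2 was 5.53 and 5.76 in siCTGF and siControl cells with kahweol, against 2.92 and 2.67 without it.

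TIMP3, which binds to the matrix and inhibits MMPs and ADAM proteinases, lies at chr22:33196802-33259028 (plus strand, gene ID 7078). It had 33.8 and 31.8 CPM in siCTGF and siControl cells with kahweol, against 20.3 and 24.9 CPM without it. Both treated libraries were again the higher ones, and the gap was wider in siCTGF cells, where the log2 fold change was 0.74 (0.58 to 0.90), than in siControl cells, where it was 0.35 (0.20 to 0.50). The additive kahweol effect was 0.54 ± 0.12 (log2, SE, edgeR adjusted p = 0.00747).

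Urokinase and its receptor moved in opposite directions with kahweol, and PLAU had the largest additive kahweol effect of the 9 genes in size. In siCTGF cells alone, the log2 fold change of MMP3 (1.47) was larger in size than that of PLAU (-1.40). PLAU, at chr10:75670859-75677259 (plus strand, gene ID 5328), had 137 and 149 CPM in siCTGF and siControl cells with kahweol, against 362 and 465 CPM without it. The treated libraries were close together and far below the untreated ones, at 0.38 and 0.32 of the untreated level in siCTGF and siControl cells. The log2 fold changes were -1.40 (-1.46 to -1.34) and -1.65 (-1.70 to -1.59) in these cells, with an additive effect of -1.53 ± 0.083 (SE, edgeR adjusted p = 4.20e-05). C10orf55, annotated on the opposite strand of PLAU, had 47 and 40 counts with kahweol in siCTGF and siControl cells, against 99 and 219 without it, or 0.506% to 0.775% of the PLAU count, and the strand setting of the counting is not stated. The other genes annotated over one of the 9 (WTAPP1, SLC12A5-AS1, SYN1, CEP295NL and SYN3) had at most 23 counts in a library.

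PLAUR, the glycolipid-anchored urokinase receptor at chr19:44150247-44174498 (minus strand, gene ID 5329), had 188 and 185 CPM in siCTGF and siControl cells with kahweol, against 107 and 104 CPM without it. These values grouped by treatment almost without regard to siRNA. The log2 fold change was 0.81 (0.74 to 0.88) in siCTGF cells and 0.83 (0.77 to 0.90) in siControl cells, and the additive effect was 0.82 ± 0.079 (SE, edgeR adjusted p = 0.000186). The TPM ratio of PLAU to PLAUR was accordingly 0.424 and 0.468 in siCTGF and siControl cells with kahweol, against 1.98 and 2.62 without it, so that receptor mRNA exceeded urokinase mRNA only in the 2 treated libraries.

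Counted together, 8 of the 9 genes had a called kahweol effect in the additive fit, 5 upward (MMP1, MMP3, TIMP1, TIMP3 and PLAUR) and 3 downward (MMP14, TIMP2 and PLAU). The background was high, since 46.6% of all genes tested were called for kahweol at an adjusted p under 0.05 (edgeR), 3805 higher and 3922 lower, or 2880 higher and 5162 lower with total-count scaling. By the fold thresholds of 1.3 and 0.7 that the study used, 6 of the 9 were over 1.3 with kahweol in siCTGF cells (28.4% of all genes) and 1 was under 0.7 (24.2%). In siControl cells 4 of the 9 were over (28.1% of all genes) and 2 under (26.3%). The members over 1.3 were MMP1, MMP3, TIMP1 and PLAUR in both, with MMP9 and TIMP3 in siCTGF cells besides. PLAU was under 0.7 in both, and MMP14 in siControl cells besides. The median log2 fold change of the 9 was 0.70 in siCTGF cells and 0.35 in siControl cells, beside -0.00 and -0.02 over all genes tested. The scaling matters to small changes: the median over all genes shifted by -0.15 and -0.13 in siCTGF and siControl cells with total-count scaling, by -0.25 and -0.22 on log2(TPM + 1), by -0.26 and -0.23 on log2(TPM + 0.1) and by -0.18 and -0.11 on log2(FPKM + 0.1). All 18 kahweol fold changes of the 9 genes kept their sign in the 126 values under 7 other scalings and units.

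**Figure D3:**
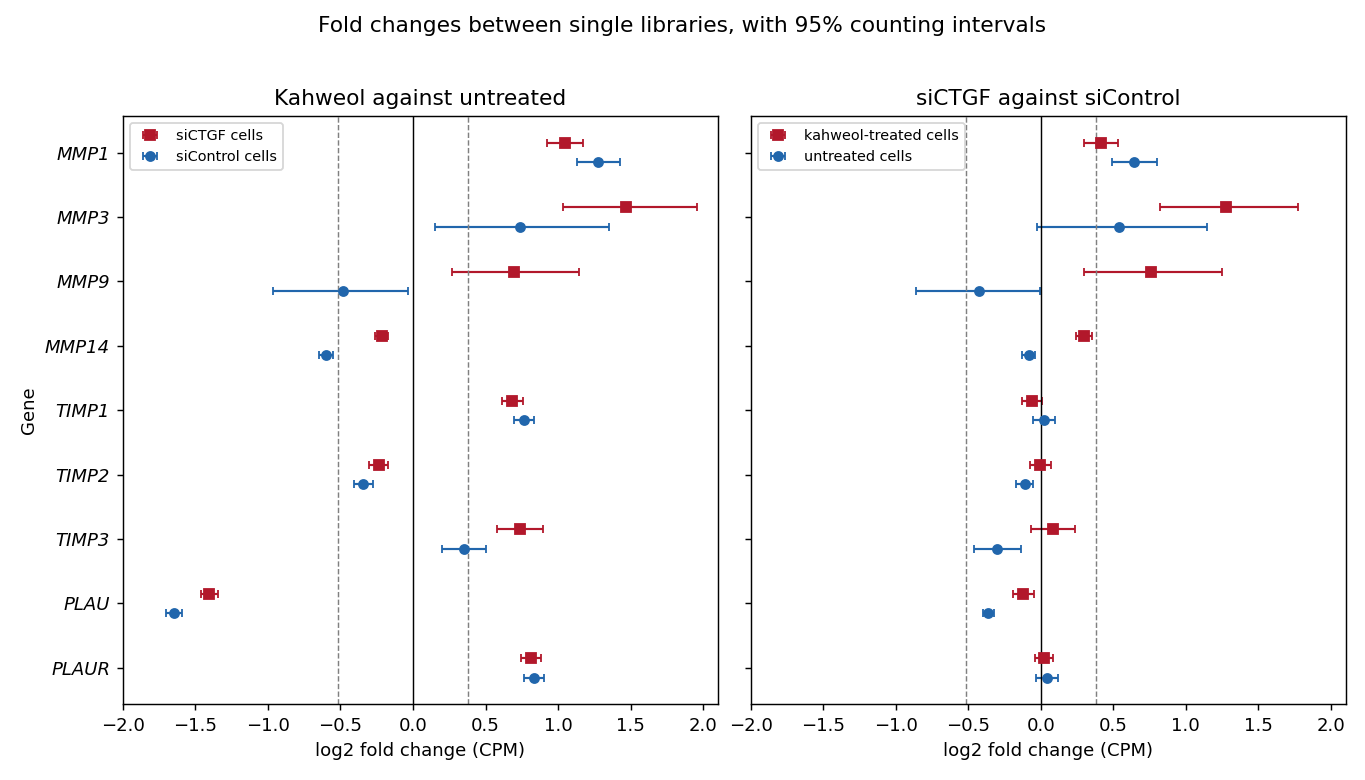
Log2 fold changes of the 9 genes between single libraries, with 95% counting intervals, kahweol against untreated on the left (squares siCTGF cells, circles siControl cells) and siCTGF against siControl on the right (squares kahweol-treated cells, circles untreated cells). Dashed lines mark folds of 1.3 and 0.7. PLAU lies at -1.40 and -1.65 on the left, and on the right only MMP1, MMP3 and, in kahweol-treated cells, MMP9 (0.76) lie over 1.3.

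CTGF knockdown went with smaller differences, and none of the 9 genes was called in the additive fit with edgeR. The background was 0.127% of all genes tested, or 21 genes, 11 of them higher and 10 lower. MMP1, MMP3 and PLAU, 3 of the 9, had an unadjusted edgeR p under 0.05. Among all 16599 genes tested, 851 higher and 794 lower genes had one too. DESeq2 called 1 of the 9 (MMP1), beside 68 higher and 60 lower of all genes. With limma-voom 0 of the 9 were called, beside 32 higher and 28 lower of all genes. CCN2 itself, the siRNA target, did not pass at 0.05 in this fit (log2 difference -1.93, edgeR adjusted p = 0.0553).

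MMP1 had the most regular difference with the knockdown, and it was upward. By qRT-PCR, the paper reports MMP1 mRNA lower with siCTGF and with kahweol in this line. Its methods give a shorter kahweol exposure for qRT-PCR than the 48 h of these libraries. They describe no siRNA transfection for that kahweol arm. The paper also reports MMP1 raised by recombinant CTGF, which reversed the kahweol effect, and lower in patient tumors with low CTGF. The reason for the difference from these libraries was not tested. In these libraries MMP1 was 63.4 CPM in siCTGF cells against 47.6 CPM in siControl cells with kahweol, and 30.7 against 19.6 CPM without it. The log2 fold change was 0.42 (0.30 to 0.53) in kahweol-treated cells and 0.64 (0.49 to 0.80) in untreated cells, each past the counting error, and the additive siCTGF effect was 0.53 ± 0.097 (SE, 2 siCTGF against 2 siControl libraries, edgeR unadjusted p = 0.000728, adjusted p = 0.135). DESeq2 gave an adjusted p of 0.0468, the lowest among the alternatives, which reached 1 without the kahweol covariate.

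MMP3 was also over the threshold in both comparisons, at log2 fold changes of 1.28 (0.82 to 1.78) in kahweol-treated cells and 0.54 (-0.03 to 1.14) in untreated cells. The second interval includes 0, so with 117 counts in siCTGF cells and 92 in siControl cells a difference was not detectable at this depth. Its additive effect was 0.93 ± 0.32 (SE, edgeR adjusted p = 0.387). PLAU was 137 CPM in siCTGF cells against 149 CPM in siControl cells with kahweol, and 362 against 465 CPM without it, with an additive effect of -0.24 ± 0.081 (SE, edgeR adjusted p = 0.375).

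With kahweol, 3 of the 9 genes were over 1.3 in siCTGF against siControl cells (MMP1, MMP3 and MMP9; 14.7% of all genes) and 0 were under 0.7 (7.83%). Without kahweol, 2 were over (MMP1 and MMP3; 9.63% of all genes) and 0 were under (8.99%). The medians of the 9 were 0.09 with kahweol and -0.08 without it, beside 0.00 and -0.01 over all genes. The TIMP genes and PLAUR stayed within log2 fold changes of -0.30 and 0.09, and 11 of their values changed sign under another scaling or unit, in both comparisons for PLAUR and in 1 comparison each for TIMP1, TIMP2 and TIMP3.

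The kahweol effect differed between the siRNA backgrounds by more than counting error for several genes, although 1 library per condition allows no test of that difference. It was larger in siCTGF than in siControl cells by 1.18 for MMP9 (log2, counting interval 0.57 to 1.80), by 0.73 for MMP3 (0.01 to 1.46), by 0.38 for TIMP3 (0.17 to 0.60) and by 0.38 for MMP14 (0.31 to 0.45), where it was the less negative one. For PLAU the fall was smaller in siCTGF cells, with a difference of 0.24 (0.16 to 0.32), and for TIMP2 the difference was 0.11 (0.01 to 0.20). For MMP1 it ran the other way, at -0.23 (-0.42 to -0.04). The kahweol effects on TIMP1 (difference -0.08, interval -0.18 to 0.02) and PLAUR (-0.02, interval -0.12 to 0.07) lay within counting error of each other. CCN2 in siCTGF cells stood at 0.17 of its siControl level with kahweol and at 0.40 without it. The part of this unequal knockdown in the differences was not tested.

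The summed level of the proteinases relative to the inhibitors was lower with kahweol. MMP1, MMP3, MMP9 and MMP14 together came to 183 and 151 TPM in siCTGF and siControl cells with kahweol, against 203 and 210 TPM without it. The 3 TIMPs together came to 415 and 457 TPM in siCTGF and siControl cells with kahweol, against 351 and 370 TPM without it. The ratio of the sums was 0.440 and 0.331 with kahweol in these cells, against 0.580 and 0.568 without it, and these ratios of mRNA were not tested. MMP14 made up 65.9% and 68.9% of the proteinase sum with kahweol in siCTGF and siControl cells, against 82.4% and 87.8% without it.

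Of 19 other MMP genes, 9 passed the count filter, and in the additive kahweol effect 1 rose (MMP15, a membrane-type MMP, log2 0.46) and 5 fell (MMP7, MMP11, MMP17, MMP19 and MMP28, edgeR adjusted p under 0.05). Against this stand 46.6% of all genes called, with slightly more falls than rises (3805 higher and 3922 lower). With total-count scaling the excess of falls among all genes was larger (2880 higher and 5162 lower). The median additive effect of the 9 other MMP genes was -0.76, beside -0.01 over all genes. MMP7, matrilysin, had 14 and 10 counts in siCTGF and siControl cells with kahweol, against 116 and 141 without it, an additive log2 effect of -3.00 (edgeR adjusted p = 0.00165). MMP11, or stromelysin-3, fell by 1.26 on the log2 scale (edgeR adjusted p = 0.00200). MMP28 rests on 0 and 2 counts with kahweol in siCTGF and siControl cells, against 20 and 18 without it. MMP2, gelatinase A and the substrate of MMP14 activation, had 0 counts in all 4 libraries, which allows up to 3 fragments in each.

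MMP1 and MMP3 belong to a run of 9 MMP genes within 435223 bp of chromosome 11. With kahweol, MMP1 and MMP3 rose while MMP7, at chr11:102391239-102401478 (GRCh37) in the same run, fell. The other 6 genes of the run (MMP8, MMP10, MMP12, MMP13, MMP20 and MMP27) had at most 22 counts in any library, too few to give a direction.

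Of 5 other MMP inhibitors, 4 passed the filter, and RECK was the 1 gene called for kahweol, downward, where 46.6% of all genes were called. The median additive effect of these 4 genes was -0.28, beside -0.01 over all genes. RECK, a membrane-anchored MMP inhibitor, was at 7.32 and 7.09 CPM with kahweol in siCTGF and siControl cells, against 11.6 and 13.6 CPM without it (additive log2 effect -0.80, edgeR adjusted p = 0.00470). TIMP4 did not pass for kahweol (0.65, edgeR adjusted p = 0.122). In siCTGF against siControl cells it was under 0.7 both with kahweol (2.37 against 4.05 CPM) and without it (1.64 against 2.37 CPM). Without kahweol the fold was 0.699, at the threshold, and its log2 counting interval (-1.10 to 0.03) includes 0. The additive siCTGF effect on TIMP4 was -0.65 (log2, edgeR adjusted p = 0.555).

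In the plasminogen system, 10 of 12 listed genes passed the filter, and with kahweol 5 fell and 1 rose, where 46.6% of all genes were called. The median additive effect of these 10 genes was -0.28, beside -0.01 over all genes. PLAT, tissue plasminogen activator, fell much as PLAU did, at 33.2 and 46.3 CPM in siCTGF and siControl cells with kahweol, against 94.7 and 159 CPM without it (additive log2 effect -1.65, edgeR adjusted p = 5.82e-05). PLGRKT, a plasminogen receptor, fell by 1.27 on the log2 scale (edgeR adjusted p = 0.000651), and ANXA2, S100A10 and ENO1, whose products also bind plasminogen at the cell surface, fell by 0.31, 0.35 and 0.25. The gene that rose was SERPINE2, which encodes protease nexin-1, an inhibitor of urokinase and thrombin (0.82, edgeR adjusted p = 0.000412). PLG, plasminogen itself, had at most 2 counts.

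Of 13 genes for MMP induction, activation and anchoring, 12 passed the filter, and with kahweol 4 rose and 3 fell, a share near the 46.6% of all genes called. Their median additive effect was 0.06, beside -0.01 over all genes. CTSL, the lysosomal protease cathepsin L, had the largest rise, at 278 and 235 CPM in siCTGF and siControl cells with kahweol, against 120 and 112 CPM without it (additive log2 effect 1.14, edgeR adjusted p = 6.46e-05). CTSD (cathepsin D) rose by 0.67, BSG (basigin, or EMMPRIN, known for inducing MMPs) by 0.48 and FURIN, a proprotein convertase that processes proMMP14, by 0.42. The 3 that fell were PCSK6, another convertase (additive log2 effect -1.53), ITGB3, an integrin subunit (-1.06), and ST14, which encodes matriptase, an activator of pro-urokinase (-0.83). For the siCTGF effect, 0 of the 35 genes tested in these 4 lists were called and 5 had an unadjusted p under 0.05 (edgeR). Of all 16599 genes, 21 were called, and 851 higher and 794 lower had an unadjusted edgeR p under 0.05. PLAT was called with DESeq2, with limma-voom and in edgeR with DESeq2 size factors or total-count scaling, in 4 of 6 alternatives. PLAT had the lowest unadjusted edgeR p among the 35 genes, 0.000412, with an additive log2 effect of -0.62 (edgeR adjusted p = 0.115).

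**Figure D4:**
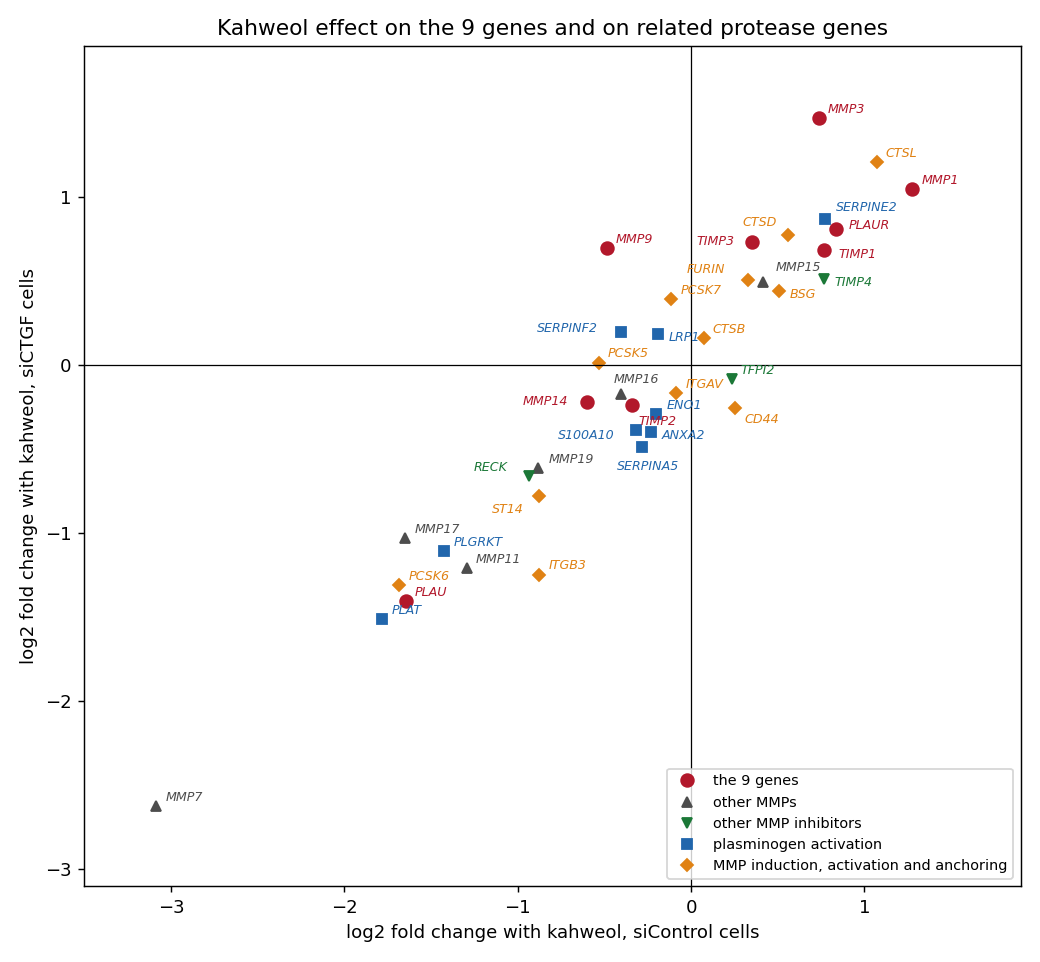
Log2 fold change with kahweol in siCTGF cells (vertical axis) and in siControl cells (horizontal axis) for the 9 genes and for those listed genes of related function whose mean count was 50 or more, 1 gene per point. PLAU (-1.40 and -1.65) lies beside PLAT and PCSK6, MMP1 (1.05 and 1.28) near CTSL, and MMP9 (0.70 and -0.48) far from the other members.

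The genes whose profile over the 4 libraries was nearest to that of MMP1 were TUFT1, ZNF426 and RBM7, at distances of 0.153, 0.165 and 0.165 in log2 CPM centred on the mean of each gene, among 11747 protein-coding genes whose mean count was 100 or more. MMP3 had the widest range of the 9 (2.01 on the log2 scale), and its nearest profiles, ZNF616, TFAP2E and ZNF267, were farther off at 0.220, 0.309 and 0.314. A profile of 4 libraries makes such likeness a description only.

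Upstream sequence was at hand for 5 of the 9 genes, in 6 windows of 250 bases before an annotated start (RefSeq, GRCh38.p14), namely PLAU (2 starts), MMP14, PLAUR, TIMP3 and TIMP1. MMP1, MMP3, MMP9 and TIMP2 were not matched. By the GENCODE annotation of that genome, annotated exons cover all 250 bases of both PLAU windows and of the PLAUR window, 123 of TIMP1, 28 of MMP14 and 4 of TIMP3. Both strands were searched for 4 words, and no match overlapped another. The AP-1 word was TGANTCA, which occurred in 6.57% of 35116 such windows. The TATA box was searched as TATAAA (10.7% of windows). The GC box was searched as GGGCGG (42.6% of windows), and the TEAD word was GGAATG (11.9% of windows). PLAUR, which rose, held the AP-1 word once and no GC box, while MMP14, TIMP1, TIMP3 and the second PLAU window held 1, 2, 5 and 3 GC boxes. The first PLAU window held none of the 4 words, and no TATA or TEAD word was found in any of the 6. The stretches of 30 bases below are shown to set the window of the receptor beside that of its ligand and of the genes that rose or fell with kahweol. They run 5′ to 3′ on the strand of the gene, and capitals mark whole motif matches on either strand.
PLAUR (minus strand, chr19:43670338-43670367): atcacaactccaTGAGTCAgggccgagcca
PLAU second start (plus strand, chr10:73911066-73911095): GGGCGGgagagggagGGGCGGcgccggggc
MMP14 (plus strand, chr14:22836507-22836536): aggagggcactgGGGCGGggacggaggaga
TIMP1 (plus strand, chrX:47582289-47582318): cctttcgtcggcCCGCCCcttggcttctgc
TIMP3 (plus strand, chr22:32801531-32801560): cgatccggGGGCGGccCCGCCCcgttaccc
The GC box word occurred both before genes that rose (TIMP1, TIMP3) and before genes that fell (PLAU, MMP14), and such matches are letters in a window, not measured sites.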

How the data were processed

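RNA-Seq libraries (stranded, rRNA-depleted, paired reads of 100 bp) were made from 4 cultures, 1 per condition. RNA was extracted with the RNeasy kit per the labels, while the methods name a different kit. Per the submitters' processing notes, the authors used FastQC 0.11.7, Trimmomatic 0.38, HISAT2 2.1.0, Bowtie2 2.3.4.1, the GRCh37.p13 build and StringTie 2.1.3b. Read filters and counting strand are not given in the sources used here. The deposited read counts per gene are whole numbers without normalization, and aligned bases per count (104 to 106) correspond to about 1 read, so 2 reads were taken as 1 fragment in every counting interval. The FPKM and TPM values were deposited by the authors as StringTie wrote them, and the authors' coverage signal was used only for that check.

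TMM factors from edgeR 4.0.16 (R 4.3.3) scaled the counts of the 16599 genes whose mean count reached 10, and log2 CPM used a prior count of 2. Fold changes between 2 libraries carry Clopper-Pearson 95% counting intervals and no test. The additive model (siRNA and kahweol) was fitted with edgeR's quasi-likelihood functions over all 16599 genes and 4 libraries, with Benjamini-Hochberg adjustment. A trial of the fit on simulated counts gave every gene the same spread, changed few genes and held no interaction of siRNA and kahweol. It does not show how the p-values behave in these data. Each gene has 1 residual degree of freedom, so the p-values lean on variance information shared over all genes, with no replicate culture behind them. The SE of an edgeR effect is its size divided by the square root of the F statistic. Alternatives were DESeq2 1.42.0, limma-voom (limma 3.58.1), other scalings, prior count 0.5, log2(TPM + 1), log2(TPM + 0.1), log2(FPKM + 0.1), other count filters, folds of 2 and 0.5, and no covariate. The floor behind a count of 0 is 3 fragments per library. The 9 genes and all lists were chosen with earlier results of these data known. Genes named from the other lists had a mean count of at least 50 and crossed 1 fold threshold in each of the 2 comparisons of an effect (at most 4 per list and direction); CCN2, MMP2, TIMP4, BSG and PLAT were named in any case, and MMP28, ANXA2, S100A10, ENO1, FURIN, PLG and the genes of the chromosome 11 run after their values were seen. Protein sequences were not used here, and 1 gene of the plasminogen list is not reported here.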

Additional observations from a re-analysis of the deposited data

Results flagged for a closer look

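The kahweol effect on MMP9 ran in opposite directions in the 2 siRNA backgrounds. The log2 fold change in siCTGF cells minus that in siControl cells was 1.18 (counting interval 0.57 to 1.80), with levels of 4.73 and 2.90 CPM in siCTGF cells with and without kahweol, and 2.78 and 3.91 CPM in siControl cells with and without it. SLC12A5-AS1, annotated on the opposite strand of MMP9, had 6 and 11 counts in siCTGF cells with and without kahweol, and 0 and 23 in siControl cells with and without it, and its part in the MMP9 counts was not tested.

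For MMP14 the same difference was 0.38 (0.31 to 0.45). MMP14 was higher in siCTGF than in siControl cells with kahweol (269 against 219 CPM) and lower without it (313 against 331 CPM). Neither difference was tested, since each condition is 1 library.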

How the results depend on the processing

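No paired analysis was possible because each condition is 1 library and the labels give no replicate numbers. Leaving out a library leaves 0 residual degrees of freedom, so the value becomes the fold change of the remaining pair, given in the report, with no test. With folds of 2 and 0.5 in place of 1.3 and 0.7, fewer members were past a threshold. For kahweol against untreated, they were 3 in place of 7 in siCTGF cells and 2 in place of 6 in siControl cells. For siCTGF against siControl, they were 1 in place of 3 in kahweol-treated cells and 0 in place of 2 in untreated cells. On log2(TPM + 1) with folds of 1.3 and 0.7, the last comparison had 1. The share of all genes past folds of 2 and 0.5 is not given here, so these member counts stand without a background. Of all genes, the siCTGF effect was called for 21 with edgeR, 128 with DESeq2, 60 with limma-voom, 75 with DESeq2 size factors in edgeR, 84 with total-count scaling, 4 at a mean count of at least 1 and 0 without the covariate, where 25 higher and 22 lower genes had an unadjusted p under 0.05; the cause was not tested. Among the members, the MMP9 kahweol effect turned to -0.0318 with total-count scaling, the MMP3 kahweol effect (1.24) lost its call without the covariate, and the MMP1 siCTGF effect (0.53) was called with DESeq2. The other 52 kahweol values and 53 siCTGF values of the members over the alternative fits kept their direction and call. Of the fold changes between single libraries, 185 values stayed within their counting interval under another scaling or unit and 67 did not. Counts of 92 to 269 for MMP3 and MMP9 limit their fold changes to wide counting intervals.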
